A study of Mus musculus with 12 samples.

Results

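The aminoacyl-tRNA synthetases were the subject of the comparison, taken as every gene symbol of the deposited expression table that follows the naming pattern of the family (a letter for the amino acid, then "ars", with or without a final 1 or 2, plus Eprs, Farsa and Farsb). The pattern found 37 of the 55487 rows, 20 of them cytosolic and 17, with names ending in 2, mitochondrial. The members were found by name and by no measured value, although the family was chosen with earlier results of these data known. The livers came from wild-type Balb/c mice aged 6 weeks, profiled by RNA-seq as 6 severe acute pancreatitis (SAP) libraries, numbered 10 to 15 and treated with caerulein, and 6 control libraries, numbered 3 to 8. Caerulein is a cholecystokinin analogue that overstimulates the pancreas, so the liver is sampled here at a distance from the injured organ. The series text speaks of more than 1 mouse model while the labels give only SAP and control of 1 strain, and the labels do not say that each library is a separate animal. The p-values therefore measure the spread between these libraries.

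Aminoacyl-tRNA synthetases join each amino acid to its own tRNA and so set the supply of charged tRNA for protein synthesis. Translation in the cytosol and in the mitochondrial matrix mostly uses separate enzymes, all encoded in the nucleus, although Gars and Kars serve both compartments from a single gene. Several cytosolic enzymes sit in a multisynthetase complex held by scaffold proteins. The enzymes fall into class I and class II by the fold of the catalytic site. In mammalian cells the transcription factor Atf4, made during the integrated stress response, is known to act on many of the cytosolic synthetase genes, and Wars is known as an interferon-gamma target.

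Levels were read as TPM, transcript abundance corrected for transcript length and scaled to a common total, so that levels can be set side by side between genes. Sequencing depth is unknown, since TPM keeps none. No label names the unit, which was inferred from library totals that lay between 993412 and 995793. Such totals do not show the correction for length, so levels compared between genes rest on that reading. Differences were tested with limma on log2(TPM + 1) over the 11344 genes that reached 1 TPM in 6 or more libraries. A gene "rose" or "fell" in SAP when its Benjamini-Hochberg adjusted p over all tested genes was below 0.05. At that threshold 44.5% of all tested genes changed, 19.5% upwards and 25.0% downwards, and 25.6% of tested genes had SAP and control libraries that did not overlap at all. The 35 acute-phase genes took 23.3 to 37.3% of all TPM in SAP libraries and 5.26 to 6.07% in control libraries. Rescaling TPM without those genes moved the median change of all tested genes up by 0.34 on the log2 scale, to 0.32, and gave 6161 higher and 1251 lower genes in place of 2211 and 2832. Levels of Xist, the noncoding RNA of the inactive X chromosome, separated the libraries into 7 with 49.1 to 60.7 TPM (SAP 10 and 12 and all controls but control 5) and 5 with 4.59 to 17.1 TPM, and the labels do not mention this split. Markers of hepatocytes summed to 38553 to 53808 TPM in SAP and 86446 to 97955 TPM in control, with 6 of 8 lower and 1 higher. Of 13 neutrophil markers 4 were tested and 3 rose. The list summed to 37.6 to 113 TPM in SAP and 5.45 to 21.4 TPM in control, most of it from S100a8 and S100a9. Untested neutrophil markers reached at most 1.65 TPM, and by mean Camp and Ltf were lower and Cxcr2, Mmp8 and Mmp9 higher in SAP. Monocyte and macrophage markers, with 4 higher and 4 lower of 10 tested, summed to 164 to 305 TPM in SAP and 141 to 217 TPM in control, and sinusoidal endothelial markers, with 4 of 8 higher, to 142 to 204 TPM in SAP and 124 to 173 TPM in control. Lymphocyte markers reached 2.21 to 7.46 TPM in SAP and 1.88 to 3.93 TPM in control, with 1 of 11 tested, which rose. Of 5 tested plasma cell markers Jchain, Igha and Sdc1 fell, while Xbp1 and Derl3, which are also on the list of endoplasmic reticulum stress, rose and carry the sum of 415 to 464 TPM in SAP and 236 to 280 TPM in control. The 12 pancreatic acinar markers summed to 0.63 to 1.54 TPM in SAP and 0.69 to 17.96 TPM in control (at most 2.11 TPM without control 8), and 0 of them passed the filter for testing. Hepatocyte markers were at high levels in every library, and no marker was at 0 in all of them. The part of these marker differences in the synthetase results was not tested, and in bulk tissue fewer cells of a type and less RNA per cell cannot be told apart.

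The cytosolic enzymes moved in both directions while the mitochondrial enzymes were mostly lower in SAP. Of the 20 cytosolic genes, all tested, 3 rose (Nars, Wars and Lars), 4 fell (Dars, Tars, Iars and Farsb) and 13 did not pass the threshold. Of the 17 mitochondrial genes 16 were tested, 9 fell (among them Yars2, Aars2, Hars2, Nars2, Sars2, Tars2, Vars2 and Rars2), 0 rose and 7 did not pass. The cytosolic genes that rose and fell are 15% and 20% of the tested ones, near the 19.5% and 25.0% of all genes, and 56.3% of the mitochondrial genes tested fell. Over the 36 tested members together, 44.4% changed, against 44.5% of all genes. The median change on the log2 scale was −0.40 for the mitochondrial genes, −0.05 for the cytosolic genes and −0.03 for all tested genes. In group overlap, 7 of 17 mitochondrial genes had every SAP library below every control library, against 2 of 20 cytosolic genes and 15.1% of all tested genes. Every SAP library lay above in 1 cytosolic gene, Nars, and 1 mitochondrial gene, against 10.5% of all tested genes. That mitochondrial gene is Mars2, which was below the tested level. With the rescaling without acute-phase genes, 15 cytosolic genes rose and 1 fell, and 4 mitochondrial genes rose and 5 fell. Counts after this rescaling, here and below, stand beside 6161 higher and 1251 lower of the 11344 tested genes. The log2 changes then became 1.06 for Nars, 0.75 for Wars, 0.65 for Lars and −0.27 for Dars. Those of Yars2, Aars2, Hars2 and Nars2 lay between −0.30 and −0.28, and that of Sars2 was −0.18. Measured from the median of all genes, the mitochondrial median was −0.37 as deposited and −0.36 after that rescaling, and the cytosolic median −0.02 and 0.03. Within the high Xist libraries alone, 8 mitochondrial genes fell and 0 rose, and 2 cytosolic genes rose and 3 fell. Over all 11344 tested genes 2041 were higher and 1830 lower in that fit. That fit, here and below, rests on only 2 SAP and 5 control libraries. With low Xist as a term in the fit, Wars, Iars, Farsb and Rars2 no longer passed (limma adjusted p of 0.109, 0.115, 0.0627 and 0.0912).

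**Figure D1:**
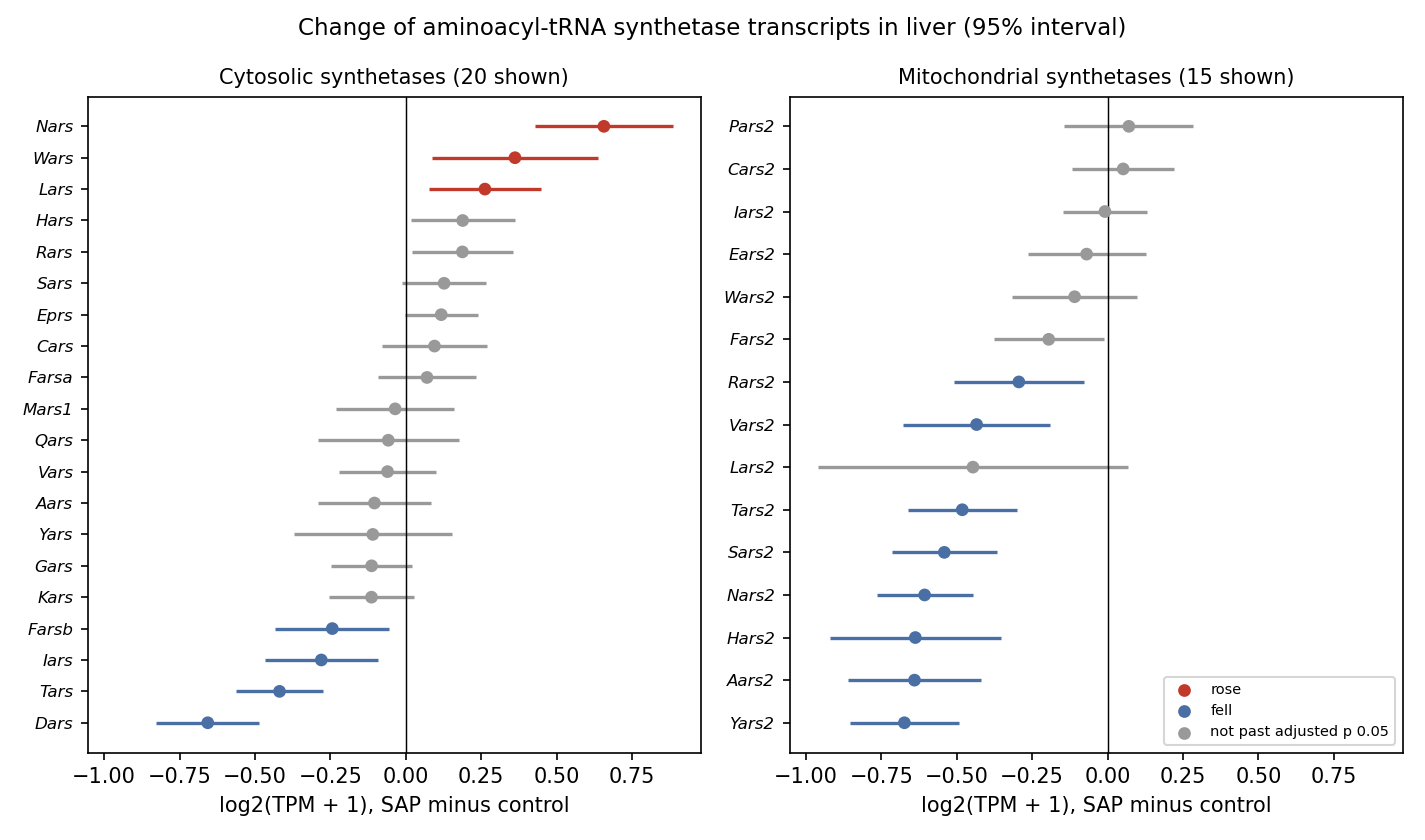
Change of 35 tested synthetases as log2(TPM + 1) in SAP minus that in control, with the 95% interval of the fit, for 20 cytosolic (left) and 15 mitochondrial (right) genes. Red marks the 3 genes that rose, blue the 12 that fell and grey the 20 not past an adjusted p of 0.05. The cytosolic points lie on both sides of 0 and 13 of the 15 mitochondrial points lie below it.

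Summed over the family the same contrast appears as levels. Cytosolic synthetases together held 600.5 ± 37.1 TPM in SAP and 592 ± 14.7 TPM in control (SD, n = 6 each), with overlapping ranges of 546 to 640 TPM in SAP and 575 to 615 TPM in control. Mitochondrial synthetases held 163 ± 16.1 TPM in SAP and 211 ± 15.5 TPM in control (SD, n = 6 each). All 6 SAP libraries, at 145 to 185 TPM, lay below all 6 controls, at 199 to 232 TPM. These sums are described without a test. With the rescaling without acute-phase genes the log2 ratio of the mitochondrial sums became 0.026 in place of −0.37, and that of the cytosolic sums 0.43 in place of 0.021. RNAs encoded by the mitochondrial genome itself made up 5.99 ± 0.752% of TPM in SAP and 7.15 ± 0.572% in control (SD, n = 6 each), with overlapping ranges, and the link of this share to the mitochondrial synthetases was not tested.

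**Figure D2:**
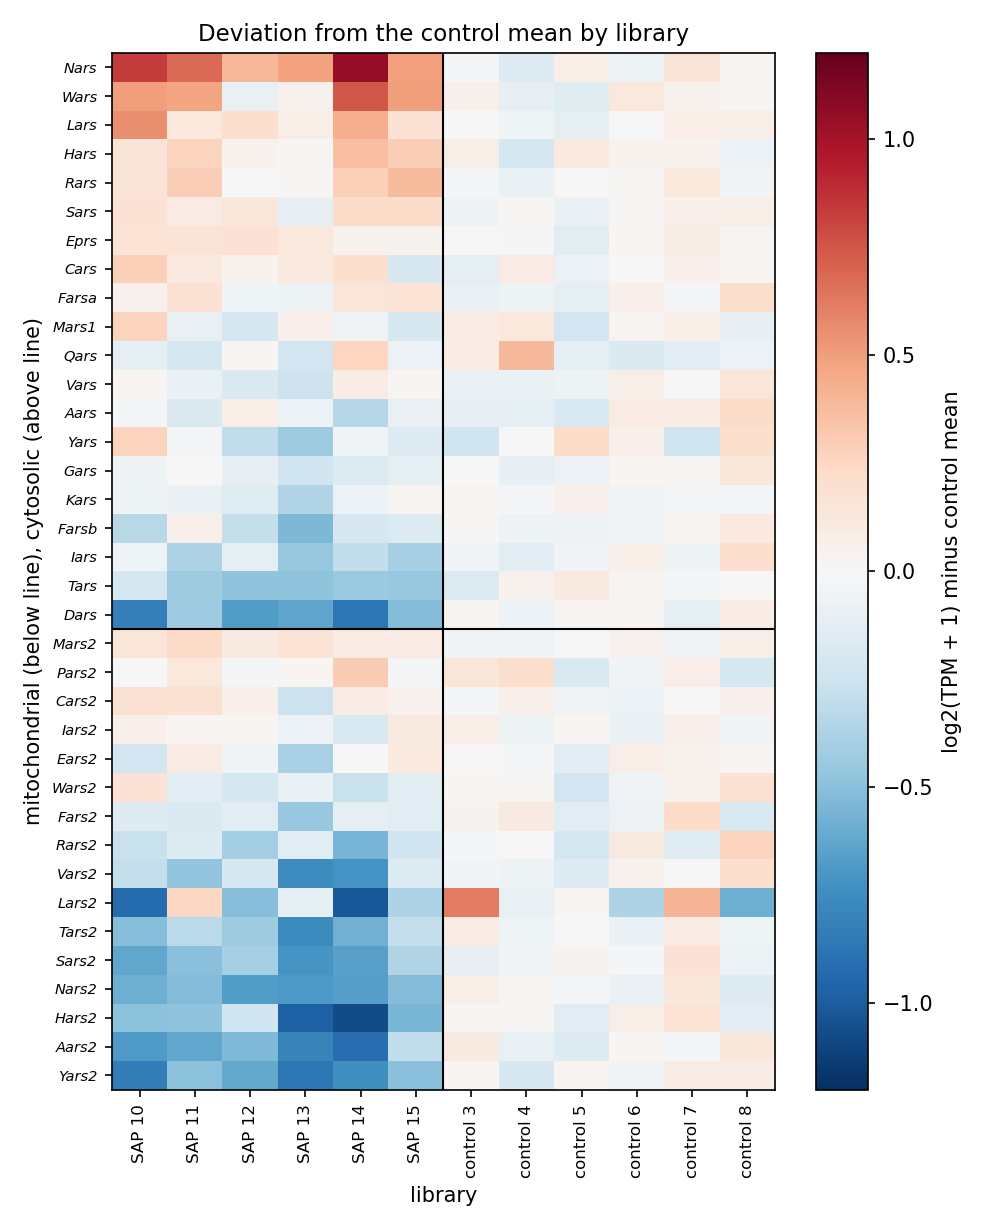
Deviation of each of 36 genes from its control mean, on the log2(TPM + 1) scale, in the 6 SAP libraries (left of the line) and the 6 control libraries (right of it). Red is above and blue below the control mean, with the cytosolic genes above the horizontal line. The lower left block is blue for most mitochondrial genes in every SAP library, deepest in SAP 13 and SAP 14, and Lars2 takes both colours in both groups.

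Among the cytosolic enzymes that rose, Nars showed the largest difference. Nars charges asparagine (chromosome 18, 64499647 to 64516652, minus strand, GRCm38). It had a lowest, median and highest value of 66.1, 75.4 and 105 TPM in SAP, against 44.7, 49.8 and 55.5 TPM in control. No SAP library overlapped a control, and SAP 14 and SAP 10 were the highest. The means were 80.3 ± 14.8 TPM in SAP and 50.02 ± 3.81 TPM in control (SD, n = 6 each), a log2 change of 0.66 ± 0.11 (SE, adjusted p = 2.26e-04, limma). Nars had the highest level of the family in SAP and the next highest after Aars in control. Within the high Xist libraries its change was 0.63 (adjusted p = 0.00751, limma).

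Wars, which charges tryptophan, had a lowest, median and highest value of 12.7, 19.4 and 23.4 TPM in SAP, against 12.2, 13.9 and 14.9 TPM in control. SAP 12 and SAP 13 lay within the control range and the other 4 SAP libraries above it, with SAP 14 the highest. The log2 change was 0.36 ± 0.13 (SE, adjusted p = 0.0336, limma). The call was lost without SAP 10, 11, 14 or 15 or control 4, 5 or 8 (limma adjusted p of 0.0528 to 0.0677), and it was 0.17 within the high Xist libraries (adjusted p = 0.402, limma). Lars, which charges leucine, had 14.2, 15.3 and 20.1 TPM in SAP as lowest, median and highest, against 12.3, 13.4 and 14.2 TPM in control. SAP 10 and SAP 14 stood above the rest, and SAP 13 lay just under the highest control. The log2 change of Lars was 0.26 ± 0.09 (SE, adjusted p = 0.0249, limma), and 0.24 without control 5 (adjusted p = 0.0529, limma).

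Dars, which charges aspartate, fell most among the cytosolic enzymes (chromosome 1, 128363707 to 128417368, minus strand, GRCm38). Its lowest, median and highest values were 18, 21.1 and 24.7 TPM in SAP, against 31.3, 34.3 and 36.0 TPM in control. Every SAP library lay below every control. The means were 21.1 ± 2.58 TPM in SAP and 33.7 ± 1.74 TPM in control (SD, n = 6 each), a log2 change of −0.66 ± 0.08 (SE, adjusted p = 2.15e-05, limma).

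Tars, the threonine enzyme, had 28.2, 28.9 and 34.4 TPM in SAP as lowest, median and highest, against 35.4, 40.3 and 43.1 TPM in control. The groups did not overlap, with SAP 10 the SAP library nearest to the controls. Its log2 change was −0.42 ± 0.07 (SE, adjusted p = 2.07e-04, limma), and −0.03 after rescaling without acute-phase genes. Iars, which charges isoleucine, averaged 12.4 ± 1.54 TPM in SAP and 15.2 ± 1.37 TPM in control (SD, n = 6 each), and SAP 10 and SAP 12 reached into the control range. Its log2 change was −0.28 ± 0.09 (SE, adjusted p = 0.0180, limma), turning to 0.10 after rescaling without acute-phase genes and standing at −0.09 within the high Xist libraries (adjusted p = 0.528, limma). Farsb, the beta subunit of the phenylalanine enzyme, averaged 20.7 ± 3.00 TPM in SAP and 24.5 ± 1.22 TPM in control (SD, n = 6 each). SAP 11 lay within the control range and the other 5 SAP libraries below it. Its log2 change was −0.24 ± 0.09 (SE, adjusted p = 0.0370, limma), turning to 0.14 after that rescaling. The Farsb call was lost without SAP 10, 12 or 13 or control 3, 6, 7 or 8 (limma adjusted p of 0.0535 to 0.0777). Farsa, which encodes the alpha subunit of the same enzyme, averaged 16.1 ± 1.26 TPM in SAP and 15.3 ± 1.40 TPM in control (SD, n = 6 each) and did not pass (0.07 on the log2 scale).

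**Figure D3:**
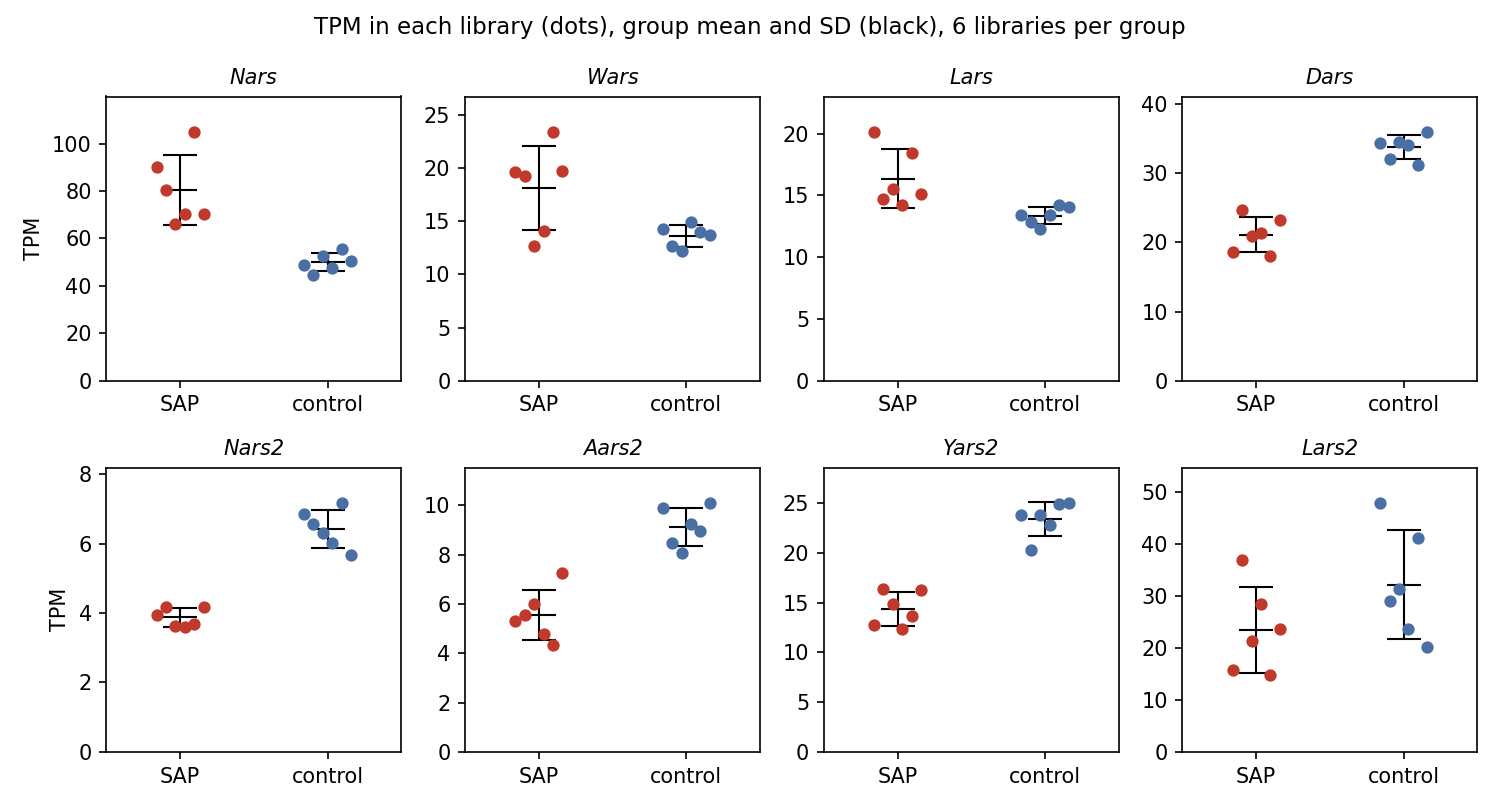
TPM of 8 synthetases in each of the 6 SAP libraries (red) and 6 control libraries (blue), with the group mean and SD in black and every axis starting at 0. SAP dots lie wholly above control dots for Nars, wholly below for Dars, Nars2, Aars2 and Yars2, and overlap them for Wars, Lars and Lars2.

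The other 13 cytosolic genes, Aars, Cars, Eprs, Farsa, Gars, Hars, Kars, Mars1, Qars, Rars, Sars, Vars and Yars, had log2 changes between −0.11 and 0.19, and their groups overlapped in every case. The largest of these were Hars, the histidine enzyme, at 30.2 ± 3.10 TPM in SAP and 26.4 ± 2.16 TPM in control, and Rars, the arginine enzyme, at 21.4 ± 2.44 TPM in SAP and 18.6 ± 0.983 TPM in control (SD, n = 6 each; limma adjusted p of 0.0713 and 0.0640). Eprs, which joins glutamate and proline activities in a single protein, averaged 35.2 ± 1.52 TPM in SAP and 32.4 ± 1.65 TPM in control (SD, n = 6 each), a log2 change of 0.12 (adjusted p = 0.103, limma). Aars, the alanine enzyme, had 55.4 ± 5.48 TPM in SAP and 59.7 ± 6.59 TPM in control (SD, n = 6 each), with a 95% interval of the change of −0.29 to 0.08. Mars1, the methionine enzyme, had 38.7 ± 5.07 TPM in SAP and 39.5 ± 3.70 TPM in control (SD, n = 6 each), with an interval of −0.23 to 0.16. Gars and Kars, which supply both compartments, each differed by −0.11 (limma adjusted p of 0.154 and 0.176). With quantile normalization Aars, Gars, Kars, Mars1 and Qars turned to values above 0 (0.03 to 0.13), and the median of the cytosolic genes to 0.12.

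By protein complex, the 8 members of the multisynthetase complex (Dars, Eprs, Iars, Kars, Lars, Mars1, Qars and Rars) gave 1 that rose and 2 that fell, with a median of −0.05. The 12 outside it gave 2 that rose and 2 that fell, with a median of 0.01. These are 12.5% and 25% inside the complex and 16.7% each outside it, against 19.5% and 25.0% of all tested genes. The 3 scaffold genes did not pass the threshold as deposited. After rescaling without acute-phase genes, when 6161 of the 11344 tested genes rose, all 3 rose. Their median was then 0.47, against 0.32 for all tested genes. With the Xist split as a term or within the high Xist libraries 2 of the 3 were below 0. Aimp1 averaged 29.8 ± 3.91 TPM in SAP and 28.0 ± 2.02 TPM in control, Aimp2 14.9 ± 2.89 TPM in SAP and 14.3 ± 1.40 TPM in control, and Eef1e1 5.42 ± 1.35 TPM in SAP and 4.91 ± 1.63 TPM in control (SD, n = 6 each). By catalytic class, 2 rose and 1 fell of 9 cytosolic class I genes, and 1 rose and 3 fell of 10 class II genes. The shares were 22.2% and 11.1% in class I, and 10% and 30% in class II. Eprs, which holds a part of each class, was counted apart.

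Among the mitochondrial enzymes 6 of 8 class II genes and 3 of 8 tested class I genes fell, with medians of −0.51 and −0.20. These shares are 75% and 37.5%, against 25.0% of all tested genes. After rescaling without acute-phase genes 4 class II genes fell and 1 rose (median −0.14), and the class I median turned to 0.11, with 1 that fell and 3 that rose. Over all 11344 tested genes 1251 then fell and 6161 rose. Yars2, the tyrosine enzyme, lies on chromosome 16, 16302965 to 16309640, plus strand, GRCm38, and had the largest fall on the log2(TPM + 1) scale. With a pseudocount of 0.1 the changes were −0.71 for Yars2, −0.72 for Aars2 and −0.71 for Nars2, so their order depends on the pseudocount. Its lowest, median and highest values were 12.4, 14.3 and 16.3 TPM in SAP, against 20.3, 23.8 and 25.0 TPM in control. The groups did not overlap, and the log2 change was −0.67 ± 0.08 (SE, adjusted p = 2.71e-05, limma). Aars2, the alanine enzyme, had 4.34, 5.43 and 7.25 TPM in SAP, against 8.08, 9.10 and 10.1 TPM in control, as lowest, median and highest. SAP 15 came nearest to the controls without reaching them, and the log2 change was −0.64 ± 0.10 (SE, adjusted p = 2.09e-04, limma). Nars2, the asparagine enzyme, had 3.60, 3.81 and 4.18 TPM in SAP, against 5.66, 6.43 and 7.16 TPM in control. Its SAP libraries lay closer together than those of any other mitochondrial gene that fell, with a log2 change of −0.61 ± 0.07 (SE, adjusted p = 2.26e-05, limma).

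Hars2, the histidine enzyme, had 5.73, 8.87 and 11.0 TPM in SAP, against 11.9, 13.3 and 14.8 TPM in control. SAP 14 and SAP 13 were the lowest and SAP 12 the highest of the SAP libraries, still under every control. Its log2 change was −0.64 ± 0.13 (SE, adjusted p = 0.00143, limma), and −0.39 within the high Xist libraries, which leave out SAP 13 and SAP 14 (adjusted p = 0.0241, limma). Sars2, the serine enzyme, averaged 7.35 ± 0.829 TPM in SAP and 11.1 ± 0.855 TPM in control (SD, n = 6 each), and its log2 change was −0.54 (adjusted p = 1.19e-04, limma). Tars2, the threonine enzyme, averaged 16.01 ± 2.06 TPM in SAP and 22.6 ± 1.25 TPM in control (SD, n = 6 each), a log2 change of −0.48 (adjusted p = 4.01e-04, limma). Vars2, the valine enzyme, had 4.16, 5.70 and 6.75 TPM in SAP, against 6.80, 7.62 and 8.93 TPM in control, with only a narrow gap between SAP 15 and control 5. These 3 genes had groups that did not overlap, and for Vars2 the log2 change of −0.43 became −0.28 within the high Xist libraries (adjusted p = 0.0567, limma). Rars2, the arginine enzyme, fell with overlapping groups, by 0.29 on the log2 scale (adjusted p = 0.0287, limma). The Rars2 call was lost without SAP 12 or 14 or control 6 or 8 (limma adjusted p of 0.0526 to 0.0661). After rescaling without acute-phase genes the calls of Tars2, Vars2 and Rars2 were lost, at log2 changes of −0.10, −0.091 and 0.057.

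Lars2 behaved unlike the rest in its spread. It had the highest mean of the mitochondrial enzymes, with lowest, median and highest values of 14.7, 22.4 and 36.9 TPM in SAP, against 20.2, 30.1 and 47.8 TPM in control. The coefficient of variation was 35.4% in SAP and 32.7% in control, while the median over the mitochondrial genes was 13.7% in SAP and 8.55% in control. Its log2 change of −0.45 ± 0.24 (SE) was as large as that of Vars2 and did not pass the threshold (adjusted p = 0.147, limma). Without Lars2 the mitochondrial sum was 140 ± 12.7 TPM in SAP and 179 ± 7.04 TPM in control (SD, n = 6 each).

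The remaining mitochondrial genes that did not pass were Fars2 (phenylalanine), Wars2 (tryptophan), Ears2 (glutamate), Iars2 (isoleucine), Cars2 (cysteine) and Pars2 (proline), with log2 changes between −0.19 and 0.07. Iars2 averaged 16.4 ± 1.23 TPM in SAP and 16.5 ± 0.792 TPM in control (SD, n = 6 each), with an interval of the change of −0.15 to 0.13. Mars2, the methionine enzyme, was below the tested level at 0.290 to 0.410 TPM in SAP and 0.170 to 0.270 TPM in control. The Mars2 groups did not overlap, with SAP the higher, and a fit with no filter gave a log2 change of 0.14 ± 0.03 (SE, adjusted p = 0.0118, limma).

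For 17 amino acids the family holds a cytosolic and a mitochondrial enzyme, which makes 18 pairs because both phenylalanine subunits pair with Fars2. Eprs pairs with Ears2 for glutamate and with Pars2 for proline. Of the 17 pairs with both genes tested, the cytosolic change was the more positive in 14, and the median difference between the changes was 0.37 on the log2 scale. The other 3 pairs include isoleucine and Farsb with Fars2. Both genes are measured in the same libraries, so the difference within a pair does not move when a library is rescaled as a whole, apart from the pseudocount. These differences are described without a test. The ratio of Nars to Nars2 was 20.8 ± 4.25 in SAP and 7.82 ± 0.787 in control (SD, n = 6 each), the largest relative difference of the 18. The ratio of Hars to Hars2 was 3.87 ± 1.19 in SAP and 2.01 ± 0.243 in control (SD, n = 6 each). SAP ratios lay wholly above control ratios for 5 pairs (alanine, asparagine, histidine, serine and tyrosine), wholly below for 0, and overlapped for 13. As single genes, 25.6% of all tested genes had groups that did not overlap, 10.5% with SAP above and 15.1% with SAP below. Such a share was not computed for ratios of other genes.

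**Figure D4:**
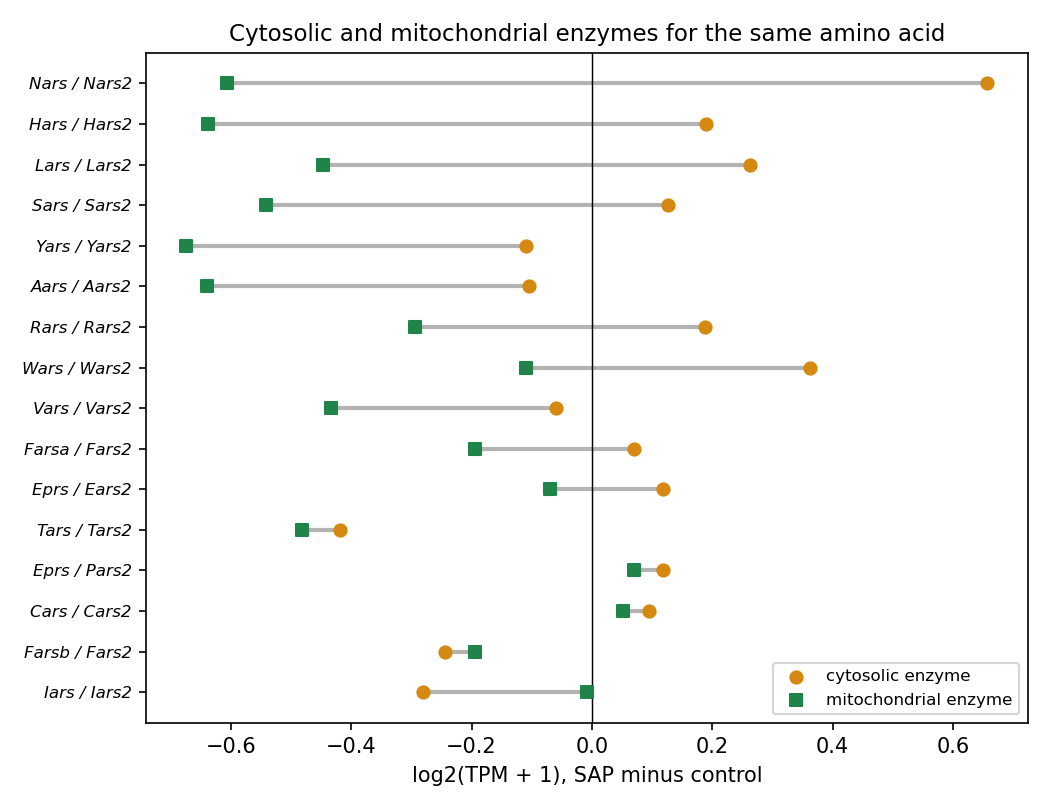
Difference in log2(TPM + 1), SAP mean minus control mean, of the cytosolic enzyme (orange circle) and the mitochondrial enzyme (green square) for the same amino acid in 16 pairs, ordered by the difference. The circle lies right of the square in 14 pairs, by 1.26 for asparagine, and left of it for Farsb and isoleucine.

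Promoter windows were read for both compartments, to show what sequence elements their members carry. RefSeq windows on GRCm38.p6, of 250 bases before to 50 bases after the transcription start, matched 27 of the 37 members, 13 cytosolic and 14 mitochondrial. Cars, Hars, Hars2, Lars, Nars, Pars2, Rars, Vars and Wars were among those with no match. The first motif was TGATGNAA, a C/EBP-ATF response element of the kind bound by Atf4, searched on both strands. It stood in the windows of 5 cytosolic genes and 0 mitochondrial genes, 17.9% of the 28 member windows and 3.97% of all 32851 windows. The whole windows of the 2 carriers that fell, Tars (chr15:11399609-11399908, minus strand) and Iars (chr13:49681880-49682179, plus strand), are shown 5′ to 3′ along the gene's strand, with the element in capitals. The element lies at −15 to −8 from the start in Tars and at 8 to 15 in Iars.
Tars: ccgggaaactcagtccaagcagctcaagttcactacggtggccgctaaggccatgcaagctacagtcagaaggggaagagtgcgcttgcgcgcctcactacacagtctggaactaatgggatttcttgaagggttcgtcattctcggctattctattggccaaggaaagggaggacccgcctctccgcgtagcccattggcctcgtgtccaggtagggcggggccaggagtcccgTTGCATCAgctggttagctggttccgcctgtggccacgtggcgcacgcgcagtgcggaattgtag
Iars: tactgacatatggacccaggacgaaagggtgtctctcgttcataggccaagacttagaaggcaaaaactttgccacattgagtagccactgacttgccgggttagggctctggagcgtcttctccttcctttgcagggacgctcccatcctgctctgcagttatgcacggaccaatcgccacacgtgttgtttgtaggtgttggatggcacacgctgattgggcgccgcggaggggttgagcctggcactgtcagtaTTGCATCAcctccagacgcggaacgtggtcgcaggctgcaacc
Stretches of 60 bases around the element in the other carriers, Aars (chr8:111033704-111033763), Gars (chr6:55037945-55038004) and Yars (chr4:129189880-129189939), all on the plus strand, show how much the flanks differ. The window of Aars holds 2 elements, of which 1 is shown.
Aars: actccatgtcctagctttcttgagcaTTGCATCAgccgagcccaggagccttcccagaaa
Gars: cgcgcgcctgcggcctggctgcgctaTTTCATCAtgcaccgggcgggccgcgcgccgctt
Yars: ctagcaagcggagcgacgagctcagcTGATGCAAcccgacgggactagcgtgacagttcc
All 5 carriers had lower means in SAP, with log2 changes of −0.42 to −0.10. Their median was −0.11, against −0.03 for all tested genes. Beside the 25.0% of all tested genes that fell and the 19.5% that rose, 2 of the 5 carriers fell and 0 rose. That 0 was set by the windows available, since Nars, Wars and Lars, the cytosolic genes that rose, had no match. With quantile normalization 3 of the 5 were below 0, and after rescaling without acute-phase genes 1 was. A match describes letters in a window and not binding.

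The NRF1 core GCATGCGC, the motif of a nuclear factor known for mitochondrial genes, stood in the windows of 3 mitochondrial members and 0 cytosolic members, 10.7% of member windows and 2.71% of all windows. Beside the 25.0% of all tested genes that fell, 2 of these 3 members fell. They are Vars2 (chr17:35667605-35667664, minus strand) and Rars2 (chr4:34614880-34614939, plus strand), and Wars2 (chr3:99141000-99141059, plus strand) did not pass. Each is shown 5′ to 3′ with the core in capitals, which occurs at 2 places in Vars2.
Vars2: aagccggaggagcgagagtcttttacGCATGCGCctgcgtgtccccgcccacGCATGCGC
Rars2: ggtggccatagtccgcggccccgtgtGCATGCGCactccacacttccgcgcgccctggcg
Wars2: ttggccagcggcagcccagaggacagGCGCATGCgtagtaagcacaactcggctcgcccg
The other 3 motifs were found in both compartments. The E-box CACGTG was in 5 members (17.9% of member windows and 7.15% of all), the ETS core CCGGAAG in 9 (32.1% and 8.86%) and the CCAAT box in 13 (46.4% and 37.4%). Both strands were searched for each, none of the 5 motifs contains another, and the windows of neighbouring genes can share bases.

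Several members start close to a gene on the other strand. Within 1000 bases, 10 members had a divergent protein-coding neighbour, in 9 pairs by GENCODE M21 on GRCm38. Hars and Hars2 form 1 of them, with starts 197 bases apart on chromosome 18 and 198 shared bases. Hars had a log2 change of 0.19 and Hars2 fell by 0.64. Sars2 starts 172 bases from Mrps12, a mitochondrial ribosomal protein gene, which rose by 0.38 (adjusted p = 0.00375, limma) while Sars2 fell by 0.54. Ears2 shares 89 bases with Ubfd1, which rose by 0.72 (adjusted p = 4.19e-04, limma), against −0.07 for Ears2. Kars starts 75 bases from Terf2ip, which rose by 0.30 (adjusted p = 0.00894, limma), against −0.11 for Kars. Rars2 and Fars2 had neighbours, Orc3 and Lyrm4, that fell, by 0.34 and 0.42. Both calls were lost after rescaling without acute-phase genes (Orc3 0.013, Lyrm4 −0.14) and within the high Xist libraries (−0.14 and −0.31), as was that of Mrps12 in those libraries (0.27), and the Orc3 call also with low Xist as a term (−0.23). Whether reads were assigned by strand was not given in the sources used here, and 11 members overlap a protein-coding gene, so reads in shared bases cannot be assigned to either gene. Fars2 shares 920 bases with Nrn1, which averaged 86.5 TPM in SAP and 233 TPM in control, a log2 change of −1.52. Cars2 shares 984 bases with Naxd (log2 change −0.49, fell), and Iars2 shares 2034 with Rab3gap2 (0.20, not past). The part of these overlaps in the synthetase values was not tested.

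Other genes of tRNA charging and elongation were read beside the family. Of 12 tested genes related to the synthetases by function, 10 fell (83.3%, against 25.0% of all tested genes) and 0 rose. Their median change was −0.41. They include the 3 subunits of the mitochondrial amidotransferase, which makes glutaminyl-tRNA for the matrix, in place of a mitochondrial glutamine enzyme. Gatb, which encodes its B subunit, averaged 20.5 ± 4.11 TPM in SAP and 38.7 ± 7.35 TPM in control (SD, n = 6 each), a log2 change of −0.88 (adjusted p = 1.80e-04, limma), and Gatc and Qrsl1 fell by 0.40 and 0.48. Sepsecs, the enzyme that completes selenocysteine on its tRNA, averaged 8.60 ± 2.58 TPM in SAP and 14.2 ± 0.470 TPM in control (SD, n = 6 each; adjusted p = 0.00158, limma). Tarsl2, a threonyl-tRNA synthetase-like gene outside the naming pattern, averaged 2.97 ± 0.595 TPM in SAP and 4.92 ± 0.362 TPM in control (SD, n = 6 each; adjusted p = 4.75e-04, limma). After rescaling without acute-phase genes, when 6161 of the 11344 tested genes rose and 1251 fell, 2 of these 12 rose and 3 fell. Of the amidotransferase subunits Gatb alone then passed (−0.50, against −0.035 for Gatc and −0.18 for Qrsl1). The number that fell was 7 with low Xist as a term and 6 within the high Xist libraries, where Sepsecs no longer passed (−0.40, adjusted p = 0.0612, limma).

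Elongation factors, which deliver charged tRNA and move the ribosome, were read by compartment. The 4 mitochondrial factors (Tufm, Tsfm, Gfm1 and Gfm2) all fell (100%, against 25.0% of all tested genes), with a median of −0.50. Tufm, which carries charged tRNA to the mitochondrial ribosome, averaged 85.7 ± 3.65 TPM in SAP and 123 ± 4.73 TPM in control (SD, n = 6 each), a log2 change of −0.52 (adjusted p = 4.01e-06, limma). Gfm1, a mitochondrial translocation factor, averaged 54.1 ± 10.7 TPM in SAP and 84.3 ± 6.14 TPM in control (SD, n = 6 each; adjusted p = 4.99e-04, limma). The 4 subunits of cytosolic elongation factor 1 (Eef1a1, Eef1b2, Eef1d and Eef1g) all rose (100%, against 19.5% of all tested genes), with a median of 0.33. Eef2, the cytosolic translocation factor, fell by 0.43 (adjusted p = 1.86e-04, limma), as did Eif5a by 0.14. After rescaling without acute-phase genes 2 of the 4 mitochondrial factors fell (Tufm by 0.12 and Gfm1 by 0.26), Eef2 no longer passed (−0.030) and Eif5a rose by 0.26. Over all 11344 tested genes 6161 then rose and 1251 fell. Eif5a was also above 0 with quantile normalization (0.12), and did not pass with scaling like that of TMM (−0.089) or within the high Xist libraries (−0.20). The Eef1 subunits rose in 4 of 4 after the rescaling and in 3 of 4 with quantile normalization, and 2 of the 4 elongation factor 1 subunits rose within the high Xist libraries. Of all tested genes 2950 rose with quantile normalization and 2041 within the high Xist libraries.

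Genes of the integrated stress response, whose factor Atf4 is known to act on many cytosolic synthetase genes, rose more often than they fell. Of 23 tested genes of this list 13 rose (56.5%) and 5 fell (21.7%), against 19.5% and 25.0% of all tested genes. Atf4 averaged 69.7 ± 13.8 TPM in SAP and 53.7 ± 5.53 TPM in control (SD, n = 6 each), a log2 change of 0.35 (adjusted p = 0.0249, limma). Ddit3, which encodes the stress factor CHOP, averaged 22.5 ± 8.34 TPM in SAP and 8.09 ± 1.44 TPM in control (SD, n = 6 each), a log2 change of 1.31 (adjusted p = 1.82e-04, limma), and its gene shares 68 bases with Mars1. Psat1, an enzyme of serine synthesis, had 5.02 to 8.79 TPM in SAP and 0.110 to 0.620 TPM in control (adjusted p = 1.70e-08, limma). Pycr1, an enzyme of proline synthesis, averaged 1.96 ± 0.468 TPM in SAP and 0.478 ± 0.226 TPM in control (SD, n = 6 each; adjusted p = 4.49e-05, limma), and Vldlr, a lipoprotein receptor, fell by 1.56 (adjusted p = 6.01e-06, limma). Beside these, 3 of the 20 cytosolic synthetases rose.

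Of 16 genes of endoplasmic reticulum stress 15 rose, among them the chaperone genes Dnajc3 (adjusted p = 1.61e-08, limma) and Sdf2l1 (1.27e-07) and the disulfide isomerase Pdia3 (5.14e-08), by 1.51, 2.42 and 1.32 on the log2 scale. Of 35 acute-phase genes 28 rose and 5 fell, with Saa3, Itih4 and Orm1 having the smallest p, at log2 changes of 9.90, 2.25 and 3.64. Of 11 tested interferon-gamma targets 3 rose as deposited, 5 with scaling like that of TMM and 8 after rescaling without acute-phase genes. Of all 11344 tested genes 2211, 2685 and 6161 rose in the same order of settings. The shares that rose as deposited were 93.75%, 80% and 27.3% for these 3 lists, against 19.5% of all tested genes. Cxcl9, a chemokine, had 16.4 to 34.4 TPM in SAP and 1.74 to 4.04 TPM in control, a log2 change of 2.61 (adjusted p = 1.96e-07, limma). Psmb8, an immunoproteasome subunit, rose by 1.10 (adjusted p = 7.74e-06, limma) and Irf1, a transcription factor, by 0.62 (adjusted p = 0.00483, limma). As deposited the other 8 did not pass. Wars rose by 0.36, as given with its values.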

How the data were processed

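Liver RNA was extracted with Trizol from frozen tissue and sequenced as standard Illumina libraries, per the labels' protocols. The deposited table was read as TPM made by the authors; the unit was inferred from nearly equal library totals, since no header or label names it. The submitters' processing notes name edgeR without a role. For aligner, build, annotation and strand handling, nothing was given in the sources used here. All 12 sample columns were used. A repeated symbol was given to its row of highest median. Log2(TPM + 1) was tested with limma 3.58.1 (trend in the empirical Bayes step) in R 4.3.3, two-sided, with group as the only term. Log2 changes on that scale understate changes of low genes. Figures used matplotlib 3.10.9, and positions are from GENCODE M21 on GRCm38. The named genes are every member, the 3 genes with the smallest adjusted p of each other list, and Aimp1, Aimp2, Eef1e1, Atf4 and Ddit3; others were named after their values were seen. Members and lists were chosen with earlier results of these data known. Alternatives were 3 other scalings, other filters, pseudocount and empirical Bayes settings, highest mean for repeated symbols, leaving out each library, and both uses of the Xist split. The pipeline was checked on simulated data. Values of some genes are not reported here, though counts include them.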

Additional observations from a re-analysis of the deposited data

Results flagged for a closer look

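In 74 groups of 6 libraries, each a synthetase in SAP or in control, 3 held a library far from the other 5, and chance alone gives about 1 in 20 groups. Cars2 stood at 11.16 TPM in SAP 13, while the other 5 SAP libraries held 14.1 to 15.5 TPM. Fars2 stood at 18.51 TPM in SAP 13, while the other 5 SAP libraries held 22.7 to 23.6 TPM. Tars stood at 34.37 TPM in SAP 10 and the other 5 SAP libraries at 28.2 to 29.3 TPM, all below every control.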

How the results depend on the processing

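Over 23 alternatives, the calls of Nars, Dars, Yars2, Aars2, Hars2, Nars2 and Sars2 held in all, with sizes after rescaling given in the results. Single calls were lost most often for Farsb (12 alternatives), Wars (10) and Rars2 (7). Rescaling TPM without acute-phase genes moved most counts. Then 6161 genes were higher and 1251 lower, 15 cytosolic synthetases rose and 1 fell, 4 mitochondrial synthetases rose and 5 fell, and the log2 ratios of the sums were 0.43 (cytosolic) and 0.026 (mitochondrial). That rescaling turned the sign of Aars (0.29), Ears2 (0.30), Fars2 (0.19), Farsb (0.14), Gars (0.28), Iars (0.10), Iars2 (0.37), Kars (0.28), Mars1 (0.36), Qars (0.33), Rars2 (0.057), Vars (0.32), Wars2 (0.17) and Yars (0.28). Quantile normalization gave 7 cytosolic genes that rose and turned Aars (0.11), Gars (0.033), Iars2 (0.057), Kars (0.075), Mars1 (0.13) and Qars (0.11). Scaling like that of TMM turned Iars2 (0.039) and Mars1 (0.015). With low Xist as a term 2 cytosolic genes fell, and Iars2 (0.0078) and Mars1 (0.048) turned. Within the high Xist libraries 1830 genes were lower, and Farsa (−0.019), Pars2 (−0.045), Iars2 (0.046) and Yars (0.030) turned. Without a filter 1 mitochondrial gene rose, Mars2. Leaving out each library gave 1 (without control 5) to 6 (without SAP 13) cytosolic genes that rose. It gave 3 to 4 cytosolic and 8 to 9 mitochondrial genes that fell. Iars2 then ranged from −0.031 to 0.027, and Qars from −0.12 to 0.020 (without control 4). The causes were not tested. No paired analysis was run, since the labels give no pairing of SAP and control libraries. Depth is unknown, so counting error could not be separated from the spread between libraries.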
